A study of Mus musculus with 15 samples.

Results

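The MYC, MAX and MXD network was followed through 9 genes, *Myc*, *Mycn*, *Max*, *Mxd1*, *Mxd3*, *Mxd4*, *Mxi1*, *Mnt* and *Mga*, taken by name from the 55266 genes to which the deposited counts could be summed. Enough reads for a test were found for 6 of the 9, *Myc*, *Max*, *Mxd1*, *Mxd4*, *Mxi1* and *Mnt*, so statements about calls cover those 6. The proteins of this network meet at short DNA sequences called E-boxes. MAX is the common partner: with MYC or MYCN it activates genes of ribosome production, metabolism and cell division, and with the MXD proteins, MXI1, MNT or MGA it holds the same kind of gene down, in the case of MXD proteins, MXI1 and MNT by bringing in the SIN3 histone deacetylase complex. In fibroblasts *Myc* is a classic gene of the serum and growth factor response, and MXD proteins are known from cells that stop dividing or differentiate.

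The cells were NIH3T3, an established line of mouse fibroblasts, and all of them carried a histone H2A fusion. In TerminaTOR cells H2A was joined to TerminaTOR, a genetically encoded inhibitor of mTORC1 that the histone keeps in the nucleus, and in all other groups it was joined to mCherry, a red fluorescent protein used as the control. The groups were TerminaTOR cells given cycloheximide and PDGF, and mCherry cells given cycloheximide and PDGF, rapamycin and PDGF, PDGF alone, or no PDGF, with 3 libraries in each of the 5 groups. PDGF drives fibroblasts to divide, rapamycin inhibits mTORC1 in the whole cell, and cycloheximide blocks translation. The fusions are switched on by doxycycline and the cells were starved of growth factors first. No group of TerminaTOR cells without cycloheximide was analysed here, and neither doses nor times, nor the number of clones behind each line, are stated by the labels. TerminaTOR and mCherry cells are separate lines, so the inhibitor cannot be told apart from other differences between the lines. Where the text below says that TerminaTOR raised, lowered or changed a gene, it means TerminaTOR cells compared with mCherry cells.

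The 15 libraries held 3466202 to 6777780 counted reads. Mitochondrial genes took 6.32% to 6.63% of reads in TerminaTOR libraries, 6.27% to 6.64% in mCherry libraries with cycloheximide, 9.84% to 11.04% with rapamycin, 8.69% to 9.29% with PDGF alone and 11.1% to 12.2% without PDGF. All 9 fibroblast markers had reads, and their summed level in TMM-normalized CPM (reads relative to the scaled total of the library) was 8618 to 9149 in TerminaTOR libraries, 7571 to 7916 in mCherry libraries with cycloheximide, 4643 to 5027 with rapamycin, 7312 to 7637 with PDGF alone and 8428 to 8517 without PDGF. The rapamycin libraries stood below all others, with 5 of the 8 tested fibroblast markers called lower and 1 higher than with PDGF alone. Of all tested genes, 16.1% were called lower and 16.3% higher in that comparison. Most of the sum was *Col1a1* (2169 CPM with rapamycin, 3683 with PDGF alone) and *Col1a2* (1570 and 2466 CPM). The marker called higher was *Pdgfra*, at 2.74-fold, and *Col3a1* was not called. Of the 8 macrophage markers *Adgre1*, *Fcer1g* and *Tyrobp* had no read in any library, and the summed level of the list was 16.0 to 18.9 CPM with PDGF alone against 6.72 to 11.3 CPM without PDGF. Most of the list's reads, 853, were on *Cd14*, which was called higher with PDGF (12.6 against 6.19 CPM, edgeR adjusted p = 0.00100). *Lyz2*, with 225 reads, was not called. *Emcn*, an endothelial marker, and *Epcam* and *Krt18*, epithelial markers, had no read either. *Cdh5*, an endothelial marker with 140 reads, was called higher with PDGF (3.69 against 1.14 CPM, edgeR adjusted p = 0.0175). *Krt8*, an epithelial marker with 115 reads, was not called with PDGF. These are marker levels in bulk RNA of a single cell line, and what lies behind their differences was not tested.

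The deposited counts are counts per transcript, and the reads of each gene lay on the transcripts that have bases of their own. Levels below are likewise TMM-normalized CPM, given as mean ± SD over the 3 libraries of a group. They compare a gene with itself across groups and not with another gene. For *Myc* 98.6% of reads were on Myc-203, at chr15:61987034-61987303 of GRCm38, 270 bases that belong to no other transcript, are annotated as untranslated in Myc-203 and lie in an intron of other *Myc* transcripts. The 5 coding transcripts of *Myc* with no base of their own had no read. All 242 *Max* reads lay on retained-intron, processed or nonsense-mediated decay transcripts, with none on its 3 coding transcripts. The other 4 tested genes were read mainly from coding transcripts, with 98.2% of *Mxd1* reads on Mxd1-201, 84.4% of *Mxd4* reads on Mxd4-201, 91.7% of *Mxi1* reads on Mxi1-201 and 100% of *Mnt* reads on Mnt-201.

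*Mxd1* was the only member called between TerminaTOR and mCherry cells. MXD1, also called MAD1, takes MAX away from MYC and brings SIN3 to E-boxes. Its level was 437.6, 422.8 and 414.6 CPM in TerminaTOR cells, against 296, 236.5 and 245.9 CPM in mCherry cells with the same cycloheximide and PDGF. The groups did not overlap, and the lowest TerminaTOR library stood well above the highest mCherry library. *Mxd1* averaged 425 ± 11.7 CPM in TerminaTOR cells and 259 ± 32.0 CPM in mCherry cells (SD, n = 3 each), a rise of 1.64-fold (log2 change 0.71, SE 0.08, 95% interval 0.56 to 0.86, edgeR adjusted p = 6.47e-11). *Mxd1* was the single call among the 6 tested members, where 4.92% of all 10603 tested genes were called, 2.35% higher and 2.57% lower. No member was called lower by edgeR, DESeq2 or limma-voom. At an unadjusted edgeR p under 0.05, 2 members were higher, *Mxd1* and *Mxd4*, and 1 was lower, *Myc*. The rise remained a call under all 14 alternatives tried, with log2 changes between 0.64 and 0.81.

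*Mxd1* also rose under cycloheximide. mCherry cells with cycloheximide and PDGF had the 296, 236.5 and 245.9 CPM above, against 36.35, 39.54 and 40.18 CPM in mCherry cells with PDGF alone, a rise of 6.69-fold (log2 change 2.74, SE 0.09, edgeR adjusted p = 5.91e-38). Both comparisons of *Mxd1* use the mCherry libraries with cycloheximide, so they are not independent. The order of *Mxd1* levels was TerminaTOR with cycloheximide, mCherry with cycloheximide, then rapamycin at 40.9 ± 3.13 CPM, PDGF alone at 38.7 ± 2.05 CPM and no PDGF at 29.9 ± 2.52 CPM (SD, n = 3 each). Only rapamycin and PDGF alone overlapped among neighbours in that order. *Mxd1* rose 1.30-fold with PDGF (log2 change 0.38, SE 0.11, edgeR adjusted p = 0.00388), but scaling to library size alone left log2 0.13 with an adjusted p of 0.363. With rapamycin *Mxd1* was 38.16, 44.29 and 40.14 CPM, overlapping PDGF alone, and the difference was not called (log2 change 0.07, 95% interval −0.15 to 0.29, edgeR adjusted p = 0.668).

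**Figure D1:**
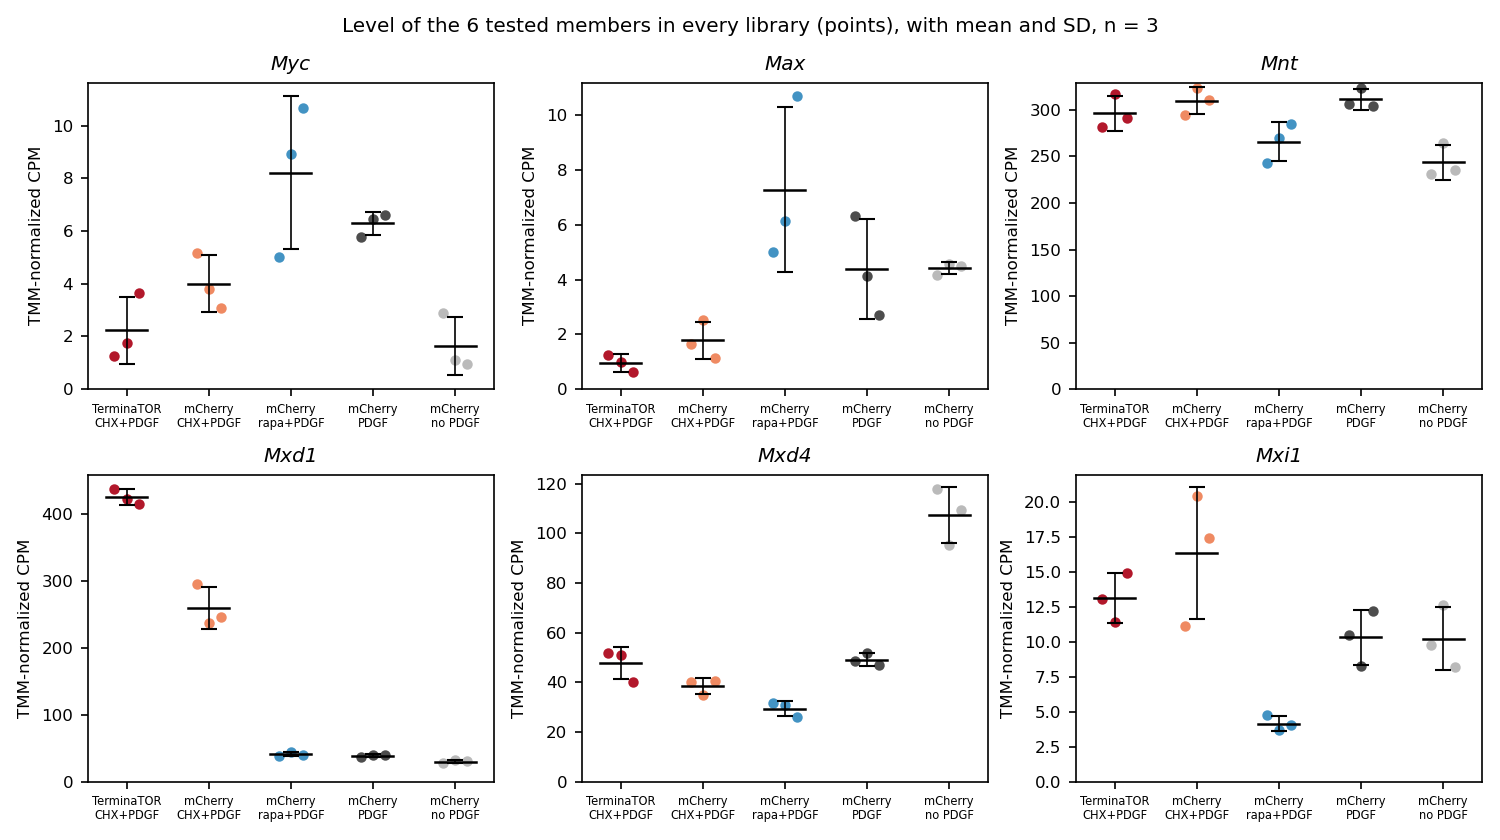
TMM-normalized CPM (y axis, linear from 0) of the 6 tested members in each of the 15 libraries (points), with the mean and SD of the 3 libraries of each group. The 3 TerminaTOR libraries sit at 414.6 to 437.6 CPM for *Mxd1*, above all other libraries, and the 3 libraries without PDGF stand highest for *Mxd4*, at 95.33 to 117.7 CPM.

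The rise under cycloheximide was seen on both the coding and the intron-retaining transcript of *Mxd1*. Mxd1-201, the coding transcript, had 3571 reads with cycloheximide and 472 with PDGF alone (log2 change 2.76, SE 0.10, edgeR adjusted p = 1.91e-42 over 13116 transcripts, of which 37.1% were called). Mxd1-204, annotated as a retained intron of 2336 bases of its own at chr6:86666202-86668537, had 67 reads with cycloheximide and 2 with PDGF alone, a ratio of 26.8 relative to library totals with an exact 95% counting interval of 7.13 to 226. Without PDGF it had 17 reads. The level with PDGF alone was 0.124 of that (exact 95% counting interval 0.0139 to 0.522), so the reference of this ratio was itself low. Mxd1-204 took 1.82 ± 0.32% of *Mxd1* reads with cycloheximide, 0.44 ± 0.75% with PDGF alone and 3.68 ± 2.3% without PDGF (SD, n = 3 each). In TerminaTOR cells Mxd1-201 rose (log2 change 0.72, SE 0.08, edgeR adjusted p = 4.71e-11, with 3.61% of transcripts called), whereas Mxd1-204 was not called at 61 reads in TerminaTOR and 67 in mCherry cells (log2 change −0.23, SE 0.48, edgeR adjusted p = 0.898). The difference between the 2 transcripts was not tested. *Gm44292*, a provisional gene model, overlaps *Mxd1* on the same strand.

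The 250 bases before the start of *Mxd1* are shown because *Mxd1* had the largest log2 change among the tested members in the 4 main comparisons. They hold 4 CCAAT boxes (CCAAT or its complement ATTGG, in capitals), beginning 240, 192, 99 and 58 bases before the start, and no E-box (CACGTG). At least 1 CCAAT box was found in 33.8% of 32851 mouse promoter windows of that length in the RefSeq table, so its presence is common. The window is chr6:86669160-86669409 of GRCm38.p6, minus strand, 5′ to 3′.
Mxd1: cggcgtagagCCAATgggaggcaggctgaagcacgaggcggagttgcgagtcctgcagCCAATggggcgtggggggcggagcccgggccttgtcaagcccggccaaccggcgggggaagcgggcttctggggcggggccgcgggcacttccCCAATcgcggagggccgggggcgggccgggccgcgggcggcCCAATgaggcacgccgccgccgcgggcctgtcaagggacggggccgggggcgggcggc

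*Myc*, the activator of the network, rose with PDGF in the reads counted for it, 98.6% of them on Myc-203. The coding *Myc* transcripts without bases of their own were listed at 0 in every library, so their level was not measured. *Myc* had 5.783, 6.461 and 6.628 CPM with PDGF, against 2.907, 1.091 and 0.935 CPM without PDGF, which is 78 and 26 reads in all. The groups did not overlap, and the rise of 3.73-fold passed the test (log2 change 1.90, SE 0.44, 95% interval 1.03 to 2.77, edgeR adjusted p = 0.000251). *Myc* was still called without each library in turn, and its log2 change stayed between 1.62 and 2.61 over 14 alternatives.

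The *Myc* level under rapamycin was 5.013, 8.92 and 10.69 CPM, against 5.783, 6.461 and 6.628 CPM with PDGF alone. The rapamycin libraries spread on both sides of the PDGF libraries, and the difference was not called (log2 change 0.39, 95% interval −0.36 to 1.13, edgeR adjusted p = 0.470). With cycloheximide and PDGF, *Myc* was 5.171, 3.782 and 3.073 CPM, each below every library with PDGF alone, but the difference was not called (log2 change −0.65, 95% interval −1.43 to 0.13, edgeR adjusted p = 0.188). TerminaTOR cells had 1.249, 1.769 and 3.661 CPM of *Myc*, against 5.171, 3.782 and 3.073 CPM in mCherry cells, on 29 and 56 reads. The groups overlapped at their edge, and the log2 change of −0.96 (SE 0.45, 95% interval −1.85 to −0.07) did not pass adjustment over all genes (edgeR adjusted p = 0.256).

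*Mycn*, a relative of *Myc*, had 4 reads in all, from a single library without PDGF, and was not tested. *Max*, the partner of all the others, had 1.249, 0.983 and 0.610 CPM in TerminaTOR cells, against 1.655, 2.521 and 1.152 CPM in mCherry cells with cycloheximide (log2 change −0.78, 95% interval −1.90 to 0.34, edgeR adjusted p = 0.535). Between cycloheximide with PDGF and PDGF alone the non-coding *Max* reads fell to 1.78 ± 0.69 CPM, against 4.39 ± 1.83 CPM (SD, n = 3 each; log2 change −1.30, SE 0.47, edgeR adjusted p = 0.0198). This call on 24 and 52 reads was lost without PDGF replicate 1 (adjusted p = 0.153), without cycloheximide replicate 1 (0.0520) or 3 (0.109), and without a filter on low counts. The coding *Max* transcripts, with 16, 5 and 0 bases of their own, were listed at 0 in every library, so their level was not measured. *Gm47218*, a provisional gene model, overlaps *Max* on the same strand.

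*Mnt*, which encodes a repressor that pairs with MAX in dividing and resting cells alike, varied little, from 231.1 to 323.8 CPM over all 15 libraries. With PDGF *Mnt* was 306.2, 323.8 and 303.7 CPM, against 231.1, 264.6 and 234.9 CPM without PDGF, a rise of 1.28-fold (log2 change 0.35, SE 0.07, edgeR adjusted p = 2.07e-05) that was no longer called under scaling to library size (log2 change 0.10, adjusted p = 0.202). With rapamycin and PDGF it was 243.1, 269.4 and 284.8 CPM, below every PDGF library, and fell 1.17-fold (log2 change −0.23, SE 0.07, edgeR adjusted p = 0.00849). That fall was lost without PDGF replicate 2 (adjusted p = 0.0536), without rapamycin replicate 1 (0.0824) and with protein-coding transcripts only (log2 change −0.14, adjusted p = 0.0717), 3 of 14 alternatives. TerminaTOR left *Mnt* at 296.6 ± 18.8 CPM, against 309.9 ± 14.5 CPM in mCherry cells (SD, n = 3 each; log2 change −0.06, 95% interval −0.20 to 0.07, edgeR adjusted p = 0.729).

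*Mxd4*, a member of the MXD family known from resting and differentiated cells, moved opposite to *Myc* with PDGF. *Mxd4* had 48.47, 51.95 and 47.02 CPM with PDGF, against 117.7, 95.33 and 109.6 CPM without PDGF, so that each PDGF library was well below every unstimulated one. It fell 2.19-fold (log2 change −1.13, SE 0.12, edgeR adjusted p = 4.00e-13). Rapamycin with PDGF gave 31.47, 30.76 and 25.89 CPM, again without overlap with PDGF alone, a further fall of 1.68-fold (log2 change −0.75, SE 0.13, edgeR adjusted p = 5.21e-06). Both falls were called under all 14 alternatives.

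Cycloheximide with PDGF gave *Mxd4* at 38.4 ± 3.14 CPM, against 49.2 ± 2.53 CPM with PDGF alone (SD, n = 3 each; log2 change −0.35, SE 0.13, edgeR adjusted p = 0.0215), a call lost without PDGF replicate 2 (adjusted p = 0.0664) or cycloheximide replicate 2 (0.0796). TerminaTOR cells had 51.83, 50.91 and 40.27 CPM of *Mxd4*, against 40.12, 34.79 and 40.34 CPM in mCherry cells, with overlap at a single library. The log2 change of 0.32 (SE 0.12) was not called (edgeR adjusted p = 0.142).

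*Mxd4* reads came from the coding transcript Mxd4-201 and from Mxd4-204, annotated as a retained intron with 4597 bases of its own that lie in introns of other *Mxd4* transcripts. Mxd4-204 took 4.61 ± 2.42% of *Mxd4* reads in TerminaTOR cells, 2.66 ± 1.599% in mCherry cells with cycloheximide, 19.2 ± 1.78% with rapamycin, 10.9 ± 1.42% with PDGF alone and 25.2 ± 4.83% without PDGF (SD, n = 3 each). The rapamycin libraries, at 18.0% to 21.2%, did not overlap those with PDGF alone, at 9.25% to 11.9%. Mxd4-204 fell with PDGF (log2 change −2.39, SE 0.28, edgeR adjusted p = 1.96e-11, with 33.0% of transcripts called), as did Mxd4-201 (log2 change −0.90, SE 0.13, adjusted p = 4.24e-09). With rapamycin Mxd4-201 fell (log2 change −0.92, SE 0.15, edgeR adjusted p = 1.90e-07, with 27.2% of transcripts called) and Mxd4-204, at 62 reads against 65 with PDGF alone, was not called (log2 change 0.05, SE 0.34, adjusted p = 0.932). Under cycloheximide it was Mxd4-204 that fell, to 14 reads against 65 (log2 change −2.35, SE 0.44, edgeR adjusted p = 7.14e-06), and Mxd4-201 that was not called (log2 change −0.19, SE 0.13, adjusted p = 0.271). The shares were not tested against each other, and *Gm42846*, an antisense gene, overlaps the *Mxd4* locus, where strand cannot be told apart.

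**Figure D2:**
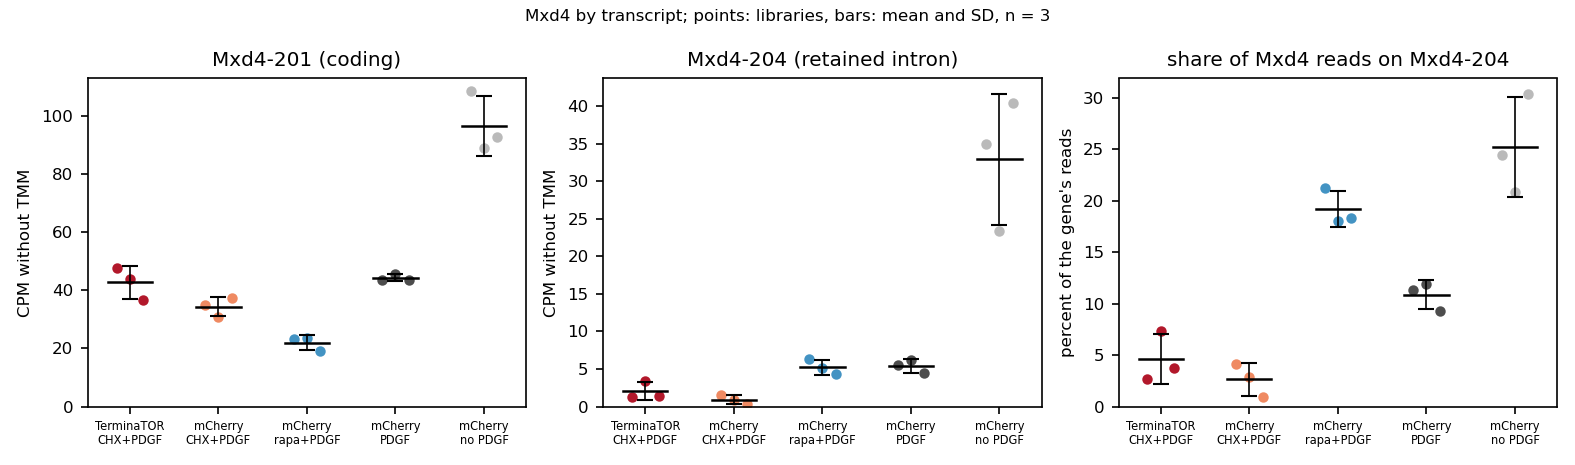
Reads scaled to library total (CPM without TMM) on Mxd4-201 (left) and Mxd4-204 (middle), and the share of *Mxd4* reads on Mxd4-204 in percent (right), in each of the 15 libraries (points) with the mean and SD of 3. The share stands at 20.8% to 30.4% without PDGF and at 18.0% to 21.2% with rapamycin, against 9.25% to 11.9% with PDGF alone and at most 4.12% in mCherry cells with cycloheximide.

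Promoter windows were at hand for 8 of the 9 members, all but *Myc*. Of the 5 tested members with a window, *Mxd4* and *Mnt* are those whose windows hold the E-box to which the network itself binds (CACGTG, in capitals), present in 6.02% of the 32851 RefSeq windows. It begins 219 bases before the start of *Mxd4*, at chr5:34187711-34187960 of GRCm38.p6, minus strand, and 123 bases before the start of *Mnt*, at chr11:74830674-74830923, plus strand. A FOXO element (TGTTTAC or its complement GTAAACA), looked for as well and present in 3.17% of windows, began 231 bases before 1 of the *Mxi1* starts and was in no other window of the members. Its window is chr19:53329445-53329694. The window next to the start of Mxi1-201, which held 91.7% of *Mxi1* reads, is chr19:53310256-53310505 and has no FOXO element. The *Mxd4* window also holds 2 CCAAT boxes, beginning 102 and 50 bases before its start and left in lower case below. A match describes these letters and shows no binding.
Mxd4: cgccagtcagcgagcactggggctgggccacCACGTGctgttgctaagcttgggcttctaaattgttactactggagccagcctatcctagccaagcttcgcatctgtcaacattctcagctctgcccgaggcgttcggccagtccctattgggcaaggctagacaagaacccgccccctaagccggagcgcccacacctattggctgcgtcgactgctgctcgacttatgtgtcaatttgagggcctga
Mnt: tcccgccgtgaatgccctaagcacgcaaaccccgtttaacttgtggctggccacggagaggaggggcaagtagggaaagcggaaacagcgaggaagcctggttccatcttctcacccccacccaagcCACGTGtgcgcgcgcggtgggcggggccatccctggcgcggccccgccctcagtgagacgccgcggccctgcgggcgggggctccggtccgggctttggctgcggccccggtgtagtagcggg

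*Mxi1*, which encodes another MAX-binding repressor of the MXD type, had the most negative log2 change of the 6 under rapamycin. It had 4.735, 3.691 and 4.038 CPM with rapamycin and PDGF, against 10.47, 8.27 and 12.22 CPM with PDGF alone, and 9.812, 12.65 and 8.228 CPM without PDGF. The rapamycin libraries lay below all the others, and *Mxi1* fell 2.49-fold relative to PDGF alone (log2 change −1.31, SE 0.30, edgeR adjusted p = 0.000297), a call kept under all 14 alternatives. PDGF itself left *Mxi1* within the spread of the unstimulated libraries (log2 change 0.03, 95% interval −0.47 to 0.53, edgeR adjusted p = 0.943).

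With cycloheximide *Mxi1* was 11.17, 20.42 and 17.48 CPM, and its first library overlapped those with PDGF alone. The rise of 1.56-fold was called (log2 change 0.65, SE 0.24, edgeR adjusted p = 0.0274) but was lost under 7 of 14 alternatives, among them without PDGF replicate 1 (adjusted p = 0.0735) or 2 (0.160) and without cycloheximide replicate 2 (0.209) or 3 (0.0977). TerminaTOR cells had 13.11, 11.4 and 14.95 CPM, inside the range of the mCherry libraries with cycloheximide (log2 change −0.32, 95% interval −0.79 to 0.15, edgeR adjusted p = 0.547). Of the *Mxi1* reads 91.7% were counted on Mxi1-201, which has 456 bases that no other transcript shares, in its first exon.

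*Mxd3*, an MXD protein known from dividing cells, had 2 reads in all libraries. *Mga*, the largest protein of the network and a partner of a Polycomb complex, had 6 reads in TerminaTOR cells, 8 with cycloheximide, 5 with rapamycin, 7 with PDGF alone and 25 without PDGF, all on non-coding transcripts. Neither was tested.

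PDGF changed 4 of the 6 tested members, with *Myc*, *Mxd1* and *Mnt* higher and *Mxd4* lower, where 37.0% of all tested genes were called, 20.1% higher and 16.9% lower. Rapamycin with PDGF lowered 3 of the 6, *Mxd4*, *Mxi1* and *Mnt*, and raised none, where 32.3% of genes were called, 16.3% higher and 16.1% lower. No member was higher by DESeq2, limma-voom or an unadjusted edgeR p under 0.05 either. Cycloheximide changed 4 of the 6, *Mxd1* and *Mxi1* higher and *Max* and *Mxd4* lower, where 40.6% were called, 21.0% higher and 19.6% lower. With 6 members, such counts say little beside these shares of all genes. PDGF alone is part of all 3 comparisons. Mitochondrial shares differed between the groups of each of them and the summed fibroblast markers were lower with rapamycin, as given above, and their part in these values, the rapamycin falls of *Mxd4*, *Mxi1* and *Mnt* included, was not tested.

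**Figure D3:**
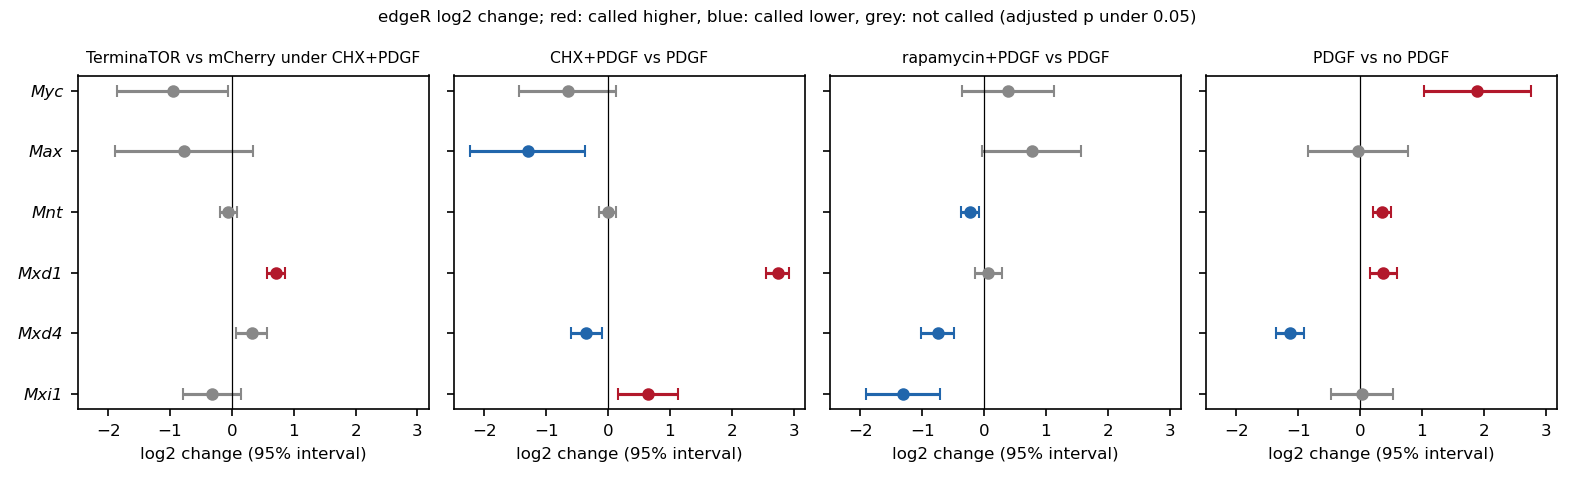
Log2 change of the 6 tested members with its 95% interval (x axis) in the 4 main comparisons. Red points were called higher, blue points lower and grey points neither, at an edgeR adjusted p under 0.05. *Mxd1* is the only coloured point of the TerminaTOR panel, at 0.71, and *Myc* and *Max* have the widest intervals.

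Relative to no PDGF, 53.3% of genes were called with rapamycin and PDGF, 27.8% higher and 25.5% lower. *Myc* rose in this comparison (log2 change 2.28, SE 0.43, edgeR adjusted p = 4.95e-06), while *Mxd4* (log2 change −1.88) and *Mxi1* (−1.28) fell and *Mxd1* rose (0.45), a rise no longer called when scaled to library size (log2 change 0.07, edgeR adjusted p = 0.607). With cycloheximide and PDGF, where 47.4% were called, 24.6% higher and 22.8% lower, *Mxd1* stood 8.69-fold above no PDGF (log2 change 3.12, SE 0.09, edgeR adjusted p = 8.57e-42), and *Myc* (1.25), *Mxi1* (0.68) and *Mnt* (0.35) rose while *Max* (−1.33) and *Mxd4* (−1.48) fell. The *Myc* rise under cycloheximide (edgeR adjusted p = 0.0184) was lost without replicate 2 or 3 of the unstimulated group or replicate 1 of the cycloheximide group, with adjusted p up to 0.115, and under scaling to library size (0.102). Under that scaling *Mnt* turned to a log2 change of −0.040 (adjusted p = 0.616) and *Mxi1* was not called (0.308). *Mxi1* was also lost without unstimulated replicate 3 (adjusted p = 0.0880) and without cycloheximide replicate 2 (0.143) or 3 (0.0588), and *Max* without cycloheximide replicate 3 (0.0805).

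Whether rapamycin and TerminaTOR acted unequally was tested as an interaction, in which 24.0% of genes were called, 11.6% higher for rapamycin and 12.4% lower. The rapamycin effect was measured without cycloheximide and within the mCherry line. The TerminaTOR effect was measured with cycloheximide and between lines, so the 2 settings differ in more than the inhibitor. *Mxd1* had a log2 effect of 0.07 for rapamycin and 0.71 for TerminaTOR, a difference of −0.64 (SE 0.13, edgeR adjusted p = 0.000107). *Mxd4* had −0.75 for rapamycin and 0.32 for TerminaTOR, a difference of −1.07 (SE 0.18, edgeR adjusted p = 3.18e-06). Both were called under all 20 alternatives of this comparison. For *Mxi1* the effects were −1.31 and −0.32, and the difference of −0.996 (SE 0.38, edgeR adjusted p = 0.0486) was lost under 13 of 20 alternatives. *Myc* (difference 1.34, edgeR adjusted p = 0.0860), *Max* (1.55, adjusted p = 0.0978) and *Mnt* (−0.16, adjusted p = 0.247) were not called.

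Genes that MYC is known to induce, mostly of ribosome production and metabolism, rose with PDGF: 19 of the 27 tested of 38 listed were called higher and none lower, with a median log2 change of 0.62 against −0.01 over all tested genes (14 higher and none lower when scaled to library size). With library-size scaling, 1379 of all 10603 tested genes were called higher and 3111 lower with PDGF. For rapamycin these were 1260 and 2265, and for cycloheximide 1713 and 2677. List counts under that scaling, here and below, are to be read beside these. As reported, with TMM, 20.1% of all tested genes were called higher and 16.9% lower with PDGF. These shares were 16.3% and 16.1% for rapamycin, 21.0% and 19.6% for cycloheximide, and 2.35% and 2.57% for TerminaTOR. *Slc16a1*, a lactate transporter, averaged 1112 ± 17.2 CPM with PDGF and 306.7 ± 20.0 CPM without (SD, n = 3 each; log2 change 1.86, edgeR adjusted p = 3.58e-38). *Ccnd2*, a cyclin of the G1 phase, rose 2.61-fold and *Rrs1*, a ribosome assembly factor, 2.24-fold. The transcripts that held the reads of listed genes are not shown here, so a list value may rest on minor or non-coding transcripts. Under rapamycin with PDGF 13 of the 27 were higher than with PDGF alone and none lower, with a median of 0.43 against 0.02 over all genes, although scaling to library size gave 11 higher and 2 lower. *Odc1*, the first enzyme of polyamine synthesis, rose to 53.9 ± 7.56 CPM with rapamycin, against 22.4 ± 3.08 CPM with PDGF alone (SD, n = 3 each; log2 change 1.27, edgeR adjusted p = 8.29e-09), and *Polr1b*, a subunit of RNA polymerase I, rose 2.27-fold.

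Under cycloheximide the same list was mostly lower than with PDGF alone, with 17 of 27 called lower and 1, *Ptma*, higher, and a median log2 change of −0.68 against 0.008 over all tested genes, and scaling to library size gave 20 lower and none higher. *Slc16a1* fell 3.47-fold (log2 change −1.79, edgeR adjusted p = 6.18e-37), *Rrs1* 2.88-fold and *Gnl3*, a nucleolar protein, 6.63-fold. The list's median was the same when the 1 gene without reads in a group was set to its bound of 3 reads over the group. TerminaTOR raised 3 of the 27 and lowered none, also by DESeq2 and limma-voom, with a median of 0.10 against 0.0006 over all tested genes, and at an unadjusted edgeR p under 0.05 it raised 4 and lowered none. *Slc16a1* had 400 ± 16.4 CPM in TerminaTOR cells and 320.5 ± 24.3 CPM in mCherry cells (SD, n = 3 each; log2 change 0.32, edgeR adjusted p = 0.000313), *Ncl*, or nucleolin, had a log2 change of 0.34 and *Bop1*, a ribosome assembly factor, of 0.42.

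Of the 10 genes known to be repressed by MYC, 6 could be tested and they did not share a direction. With PDGF 3 were higher and 2 lower: *Thbs1*, a matrix protein and known PDGF-induced gene, rose 6.16-fold, *Gadd45a*, a stress gene, 6.14-fold and *Ndrg1* 3.37-fold, while *Gas1*, a gene of growth arrest, fell 3.93-fold. *Cdkn1b*, which encodes the cyclin-dependent kinase inhibitor p27, fell with rapamycin and PDGF to 31.3 ± 1.75 CPM, against 61.3 ± 6.64 CPM with PDGF alone (SD, n = 3 each; log2 change −0.96, edgeR adjusted p = 5.46e-10), and *Ndrg1* rose 2.31-fold. In all, rapamycin left 4 higher and 1 lower, cycloheximide 1 higher and 4 lower, and TerminaTOR none in either direction, with 1 higher at an unadjusted p under 0.05. Of all tested genes 37.0% were called with PDGF, 32.3% with rapamycin, 40.6% with cycloheximide and 4.92% with TerminaTOR. With 6 genes, such counts say little beside these shares. The medians of the 6 were −0.009 for TerminaTOR (0.02 when scaled to library size), −0.44 for cycloheximide, 0.44 for rapamycin and 1.18 for PDGF.

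The SIN3 complex, through which MXD proteins, MXI1 and MNT act, had 12 tested genes of 15. TerminaTOR raised 2 of them and lowered none by edgeR, DESeq2 and limma-voom, with 2 higher and 1 lower at an unadjusted edgeR p under 0.05. Of all tested genes, edgeR called 2.35% higher and 2.57% lower in this comparison. *Sin3b*, a scaffold subunit that binds MXD proteins, had 215.1 ± 9.34 CPM in TerminaTOR cells and 158.5 ± 4.54 CPM in mCherry cells (SD, n = 3 each; log2 change 0.44, SE 0.08, edgeR adjusted p = 9.47e-05), and *Arid4a* had a log2 change of 0.32 (adjusted p = 0.00814). Under cycloheximide, in a comparison that shares the mCherry libraries, 3 rose: *Sin3b* 2.50-fold, *Arid4a* 2.29-fold and *Arid4b* 2.31-fold, while *Suds3* fell 1.65-fold. There 21.0% of all tested genes were called higher and 19.6% lower. With PDGF 4 fell, among them *Suds3* 2.72-fold, *Hdac2* 2.07-fold and *Sap30* 1.76-fold, and *Ing2* rose 1.61-fold. The shares of all tested genes called with PDGF were 20.1% higher and 16.9% lower. Scaling to library size left 9 lower and none higher, where 3111 of all 10603 tested genes were called lower and 1379 higher. Rapamycin raised *Hdac2* 1.86-fold and *Sin3b* 1.27-fold and lowered 3, among them *Sap30* 1.51-fold, where 16.3% of all tested genes were called higher and 16.1% lower. The median log2 change of the SIN3 list, to be read beside the medians of all genes above, was 0.07 for TerminaTOR, 0.26 for cycloheximide, −0.22 for rapamycin and −0.20 for PDGF.

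**Figure D4:**
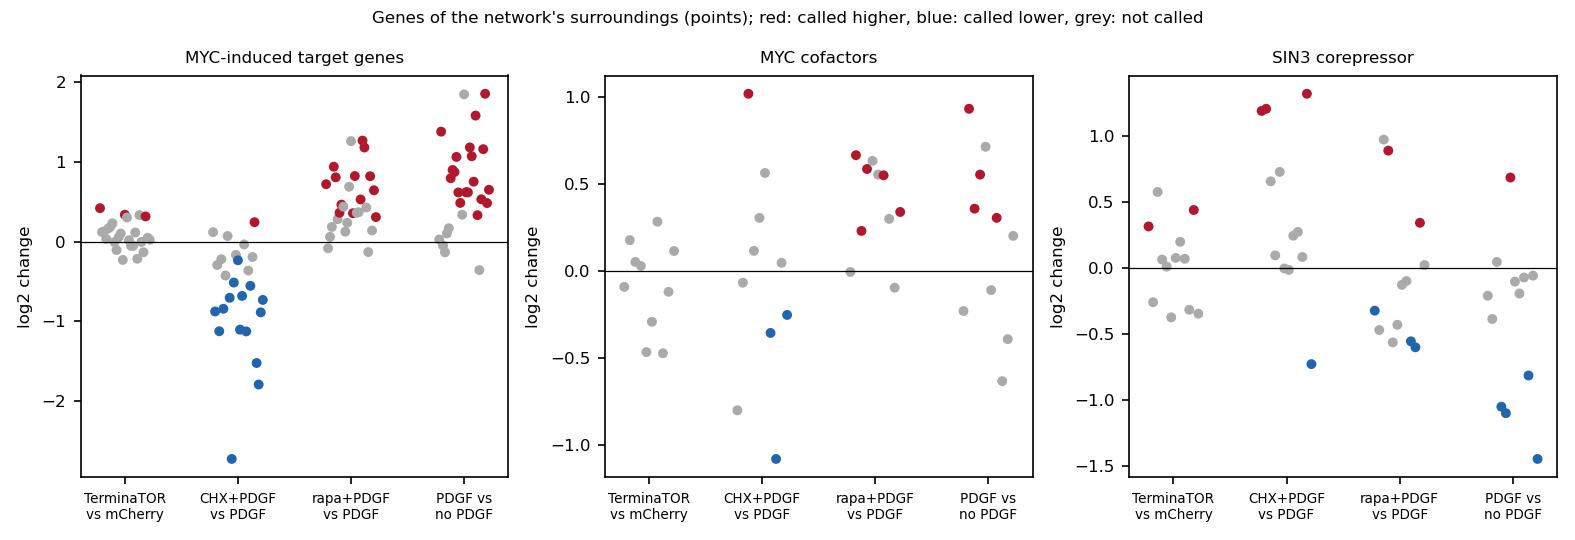
Log2 change (y axis) of genes known to be induced by MYC, of MYC cofactors and of SIN3 complex genes in the 4 main comparisons, 1 point per tested gene, red if called higher, blue if called lower and grey otherwise. In the TerminaTOR and cycloheximide columns 2 MYC-induced genes with 3 reads or fewer in a group are not drawn. The MYC-induced genes lie mostly above 0 with PDGF (median 0.62) and mostly below 0 under cycloheximide (median −0.68).

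MYC cofactors had 10 tested genes of 14. For this list and the next, 20.1% of all tested genes were called higher and 16.9% lower with PDGF. These shares were 16.3% and 16.1% for rapamycin, 21.0% and 19.6% for cycloheximide, and 2.35% and 2.57% for TerminaTOR. With PDGF 4 rose and none fell, *Ccnt1*, the cyclin of the elongation kinase P-TEFb, by 1.28-fold, but scaling to library size gave 1 higher and 2 lower. Rapamycin with PDGF raised 5, among them *Ruvbl1* by 1.46-fold and *Ccnt1* by 1.17-fold. Cycloheximide raised *Ccnt1* 2.03-fold and lowered 3, and TerminaTOR changed none, with 1 higher at an unadjusted p under 0.05. The cofactor medians were −0.03 for TerminaTOR (0.001 when scaled to library size), −0.009 for cycloheximide, 0.45 for rapamycin and 0.26 for PDGF, the last of them 0.004 when scaled to library size, where the median of all tested genes was −0.26. Of the genes that control MYC protein turnover, 13 of 15 were tested. *Fbxo32*, a ubiquitin ligase subunit, fell 6.07-fold with PDGF and *Usp36*, a deubiquitinase, rose 2.96-fold, with 3 higher and 3 lower in all, or 2 and 4 when scaled to library size. Rapamycin lowered 4 of them, *Plk1*, a mitotic kinase, by 2.203-fold, and raised none by edgeR or DESeq2 but 2 by limma-voom and 2 at an unadjusted edgeR p under 0.05. Cycloheximide raised 3 and lowered 2, and TerminaTOR changed none, with 1 higher at an unadjusted p under 0.05. With 13 genes, such counts say little beside the shares of all genes. The turnover medians were 0.11 for TerminaTOR, −0.18 for cycloheximide, −0.31 for rapamycin and 0.17 for PDGF, the last of them −0.08 when scaled to library size.

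The Polycomb complex in which MGA sits had 6 tested genes of 11, and *Rybp* rose 1.67-fold with PDGF, where 2 of the 6 rose and none fell, or 1 rose and 2 fell when scaled to library size. Cycloheximide raised 2 and lowered 2, with *Pcgf6*, which names the complex, down 3.92-fold. Rapamycin raised 1 and lowered 1, and TerminaTOR changed none, also at an unadjusted p under 0.05. Of all tested genes 37.0% were called with PDGF, 40.6% with cycloheximide, 32.3% with rapamycin and 4.92% with TerminaTOR. With 6 genes, such counts say little beside these shares. The Polycomb medians were −0.05 for TerminaTOR, −0.39 for cycloheximide, 0.09 for rapamycin (−0.04 when scaled to library size) and 0.35 for PDGF. DESeq2 and limma-voom called no gene of the MYC-repressed, cofactor, turnover and Polycomb lists in the TerminaTOR comparison either. Of the MLX arm of the network and other E-box proteins 2 of 7 were tested, and *Tfap4*, an E-box protein, fell 2.71-fold with PDGF and a further 2.19-fold with rapamycin. *Arrdc4*, a target of the MLX partner MondoA and the 1 tested of 2, fell 1.32-fold with PDGF and 1.57-fold with rapamycin and rose 1.94-fold under cycloheximide, and TerminaTOR left it at a log2 change of −0.001.

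The 2 genes whose pattern over the 5 groups was most like each member were found among 4808 protein-coding genes, by the root-mean-square difference of centred log2 group means. *Mxd1* was nearest to *Plat*, tissue plasminogen activator, at 0.30, and *Raver2* at 0.32. The *Plat* group means on the log2 CPM scale were 11.01 in TerminaTOR cells and 11.1 in mCherry cells with cycloheximide, so the step between these 2 groups that *Mxd1* showed was not seen in *Plat*. *Mxi1* was nearest to *Arhgap10*, at 0.086, and *Slc25a16*, at 0.10. *Mxd4* was nearest to *Rassf2*, at 0.15, and *Tfdp2*, a partner of E2F factors, at 0.16. *Myc* was nearest to *Arl4c*, at 0.18, and *Sqstm1*, which encodes the autophagy receptor p62, at 0.20. *Max* was nearest to *Srpk1*, at 0.16, and *Cttn*, at 0.17, and *Mnt* to *Sar1a*, at 0.029, and *Ak6*, at 0.045. With 5 groups, such likeness is a description of these libraries.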

How the data were processed

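Poly(A) RNA was measured in 15 NIH3T3 libraries in 5 labelled groups of 3. Per the labels' protocols, messenger RNA was captured on oligo-dT beads, fragmented and primed with random hexamers; the labels do not state strand, so overlapping antisense genes cannot be told apart. The deposited files give raw read counts, as whole numbers, of 142446 mouse transcripts. HISAT2 2.2.1, HTSeq 0.9.1, R 4.1.0 and the human build hg38 are listed, per the submitters' processing notes, although the identifiers are mouse, and no mouse build is stated. Identifiers were matched to GENCODE M21 (GRCm38): 141536 matched, and the 910 others, with 0.0309% of counts, were not used. Each gene is the sum of its transcripts. A read shared by several transcripts appears not to be counted, since coding transcripts without bases of their own had few or no reads here, so a shift between isoforms can change a gene's sum.

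Genes were filtered with filterByExpr (10603 left), scaled by TMM and tested in 1 fit of all 15 libraries with edgeR 4.0.16 (quasi-likelihood F test, robust) in R 4.3.3, with Benjamini-Hochberg adjustment over all genes and a call at an adjusted p under 0.05. The SE was obtained from the log2 change and the F statistic, as their ratio after taking the root of F. Transcripts of the members were tested the same way among 13116 transcripts. Scripts were tested on simulated counts first. Alternatives were library-size scaling, DESeq2 1.42.0, limma-voom 3.58.1, no filter, a mean count of at least 10, the compared groups alone, a replicate block, protein-coding transcripts only and leaving out each library. The members, gene lists and named genes were chosen with earlier results of these data known. Of each list the text names called genes from the 4 with the lowest p per comparison; *Ptma* was named after its value was seen, and 1 called gene of the cofactor list is not reported here by name. No label says that replicates are separate cultures, so p-values measure only the spread among these libraries, which may be technical. Counting intervals cover counting error only, since reads are not independent molecules. Promoter sequences are from RefSeq, GRCm38.p6.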

Additional observations from a re-analysis of the deposited data

How the results depend on the processing

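Depth limited the network most at *Myc* and *Max*, with 15 to 92 reads per group, and *Mycn*, *Mxd3* and *Mga* could not be tested. Under scaling to library size the median log2 change of all genes was −0.26 for PDGF, −0.10 for rapamycin, −0.13 for cycloheximide, −0.36 for rapamycin with PDGF against no PDGF and −0.40 for cycloheximide with PDGF against no PDGF, where the reported medians lie between −0.01 and 0.02. Under it 1 member was called higher for PDGF against no PDGF (3 as reported), 1 for cycloheximide against PDGF (2), 1 for rapamycin with PDGF against no PDGF (2) and 1 for cycloheximide with PDGF against no PDGF (4). *Mnt* then reversed, to log2 −0.25 (adjusted p = 0.000941) with rapamycin and −0.040 with cycloheximide, each against no PDGF, where the reported values are 0.13 and 0.35. Without a filter on low counts, cycloheximide against PDGF had 1 member called higher and 0 lower, over more genes tested. With protein-coding transcripts only, which leaves out *Max*, it had 1 higher and 1 lower, cycloheximide with PDGF against no PDGF had 1 lower, and the difference between rapamycin and TerminaTOR effects had 1 higher, *Myc*; fitting the compared groups alone also gave 1 higher there, against 0 as reported. Otherwise the cause was not tested. Leaving out 1 library at a time gave 1 to 2 higher and 1 to 2 lower for cycloheximide against PDGF, 2 to 4 higher and 1 to 2 lower for cycloheximide with PDGF against no PDGF, and 0 to 1 higher for the difference. Counts for the TerminaTOR comparison, 1 higher and 0 lower, were the same in every alternative run. Same-numbered libraries showed little common deviation (correlations −0.040 to 0.076 over all pairs of groups), so pairing by number was not detected, which does not exclude it. With a replicate block 563 genes were called for TerminaTOR, against 522 without, *Mxd1* had a log2 change of 0.71, and no call of a member changed.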
